A study of Mus musculus with 32 samples.

Results

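Liver was compared with brain, heart and kidney in mouse RNA pulled down with an antibody against N6-methyladenosine (m6A). The liver level of each gene was set against the mean of the 3 other organs in tissue of the same preservation, either frozen or formalin-fixed and paraffin-embedded (FFPE). Genes entered when their log2 level was above 0 in at least 2 of the 8 libraries, and 14864 of the 27179 genes in the table met this. No measured difference between organs chose these 14864 genes for testing. For 573 of these genes the liver libraries were needed to meet this, although other organs could hold some counts of them. Being above 0 mainly in liver, such genes stand high there by their selection, and how many there are is given beside the lists as those that entered through liver only. The gene lists and their members were chosen with earlier results of these data known.

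The labels list 32 samples in 16 groups of 2, of which 16 samples were made with the m6A antibody and 16 are inputs. Each organ was either flash frozen or fixed in 10% formalin and embedded in paraffin, the form in which pathology archives keep tissue, and no group carries a treatment or a mutant allele. RNA was taken up in Trizol (after removal of the paraffin for FFPE tissue), sheared for 20 min by ultrasound in a PIXUL plate instrument and made into total RNA libraries with depletion of ribosomal RNA. Strain, sex and age of the mice are not given in the sources used here. The deposited table has 1 column for each organ and preservation, so liver is represented by 1 frozen and 1 FFPE library although the labels hold 4 liver m6A samples. Input libraries were not analysed here, so a level reflects both how much of a transcript the organ held and how strongly it was methylated, and these were not separated. In whole tissue, fewer cells of a type and less RNA per cell cannot be told apart.

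m6A is a methyl group on adenosines of messenger and noncoding RNA, placed by a methyltransferase complex while the RNA is made and read by proteins that alter splicing, translation and decay. The liver makes most of the proteins of blood plasma, holds glucose steady by storing and releasing it, turns ammonia into urea, builds bile acids and lipoproteins, and modifies drugs and other foreign compounds. Most of this work is done by hepatocytes, the parenchymal cells that form the bulk of the organ. Kidney tubule cells share part of the metabolic work with hepatocytes, among it glucose synthesis and the breakdown of several amino acids.

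Total gene counts ran from 9603050 to 21523379 per library. The 4 ribosomal genes took 73.1% of the counts in frozen liver and 79.5% in FFPE liver, against 50.4% to 79.7% over the 8 libraries. Outside these genes frozen liver held 4009534 counts and FFPE liver 3050241, the latter the shallowest of the 8. A level is a log2 CPM value: the count plus 0.5, relative to the authors' scaled library size. On that scale 3 counts correspond to −1.52 in frozen liver and −0.86 in FFPE liver, and to values between −3.29 and −1.73 in the other organs. Frozen heart held more neuron transcripts than kidney or liver did: 0.0133% of its nonribosomal counts fell on the 10 neuron markers, against 0.00531% in FFPE heart. These markers took at most 0.00112% in either liver library. The 10 cardiomyocyte markers took at most 0.00863% and the 11 nephron markers at most 0.00322%. Myh6, the cardiac myosin heavy chain, had 153 counts in frozen and 107 in FFPE liver.

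The 4 hepatocyte markers were abundant in both liver libraries and low in most others, as the label requires. Alb encodes serum albumin, the main protein of plasma. It stood at 14.06 in frozen and 13.91 in FFPE liver, from 171879 and 97618 counts, against −0.97 and −0.90 in brain, −0.45 and 1.07 in heart, and 3.78 and 1.31 in kidney (each pair frozen, then FFPE). The liver libraries thus lay far above the other 6, and the frozen kidney library was the next highest. Apob, the structural protein of very low density lipoprotein, stood at 12.87 and 12.45 in liver and at 7.48 and 6.84 in kidney, with brain and heart at or below 1.23. Cyp2e1, an ethanol-oxidising cytochrome P450, stood at 11.24 and 10.24 in liver and at 7.16 and 6.49 in kidney. C3, the central complement protein, stood at 11.20 and 11.43 in liver, and its next organ was heart at 5.77 and 5.09. For all 4 markers liver stood above each other organ in both preservations, as 18.4% of all tested genes did. The fitted differences between liver and the mean of the other organs were 13.35 ± 0.58 (standard error) for Alb, 11.06 ± 0.46 for Apob, 10.05 ± 0.23 for Cyp2e1 and 9.30 ± 0.23 for C3, on the log2 scale.

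**Figure D1:**
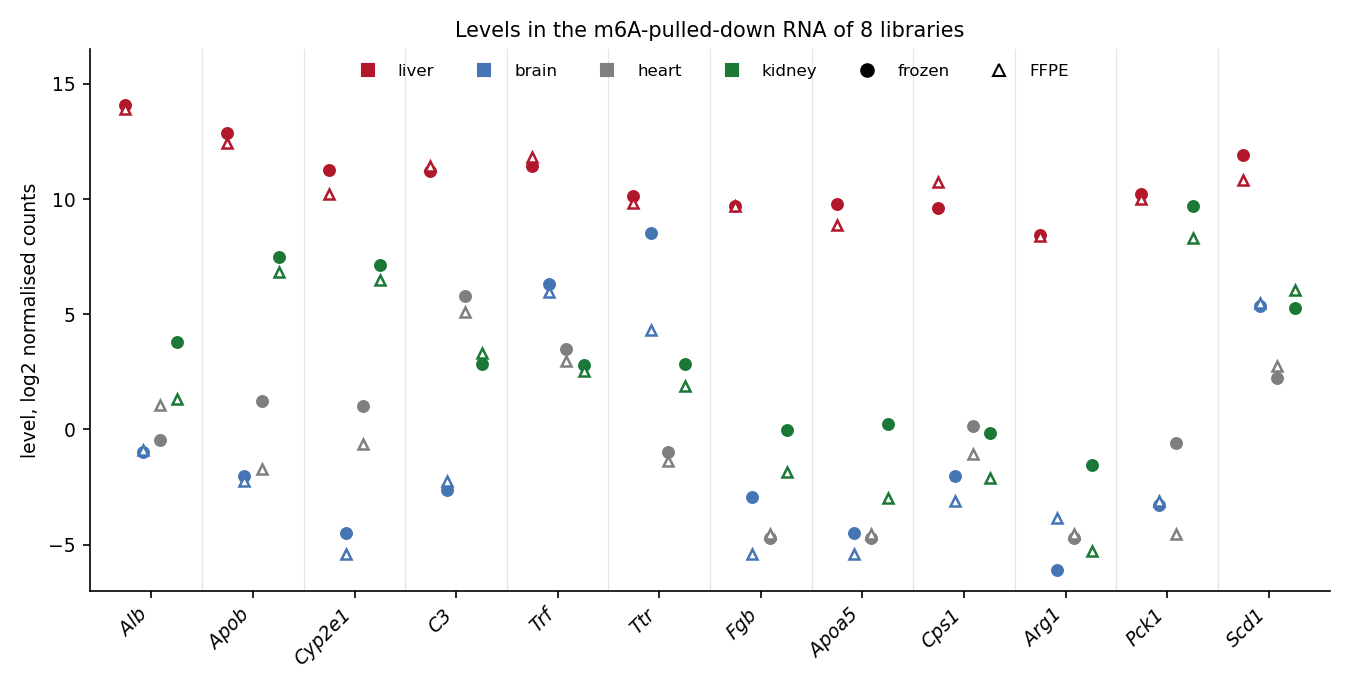
Levels (log2 normalised counts, y axis) of 12 genes in the 8 m6A libraries, with colour for the organ, filled circles for frozen and open triangles for FFPE tissue; each point is 1 library. The 2 liver points lie above all others for every gene shown, with kidney close below for Pck1 and frozen brain close below for Ttr.

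The stretches of 150 bases before the start of 4 genes that the results turn on are printed here, to show where 2 of the short motifs counted below lie in genes with large differences. They are RefSeq sequences of GRCm38.p6, written 5′ to 3′ on the strand of the gene, and capitals mark a match to GTTAAT, the half-site of HNF1 (or its reverse complement ATTAAC), or to TATAAA, the TATA box. Alb lies at chr5:90460720-90460869 on the plus strand, Fgb at chr3:83049864-83050013 on the minus strand, Cyp2e1 at chr7:140763669-140763818 on the plus strand and C3 at chr17:57228137-57228286 on the minus strand.
Alb: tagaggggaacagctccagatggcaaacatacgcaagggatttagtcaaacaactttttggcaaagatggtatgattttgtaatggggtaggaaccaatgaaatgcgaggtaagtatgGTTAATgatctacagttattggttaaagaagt
Fgb: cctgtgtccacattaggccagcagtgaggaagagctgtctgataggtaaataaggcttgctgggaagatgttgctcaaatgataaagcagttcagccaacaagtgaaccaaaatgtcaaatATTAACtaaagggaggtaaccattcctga
Cyp2e1: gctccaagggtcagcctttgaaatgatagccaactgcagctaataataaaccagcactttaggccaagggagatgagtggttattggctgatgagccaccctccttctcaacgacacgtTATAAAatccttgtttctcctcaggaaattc
C3: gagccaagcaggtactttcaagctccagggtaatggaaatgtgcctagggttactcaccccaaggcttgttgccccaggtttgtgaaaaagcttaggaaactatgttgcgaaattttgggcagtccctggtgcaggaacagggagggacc

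Alb and Fgb hold the HNF1 half-site in this stretch, Cyp2e1 the TATA box, and C3 neither. C3 does have a match to TATAAA or its reverse complement in the wider window used next. In the wider window from 250 bases before to 50 after the start, searched on both strands, GTTAAT stood in 29 of the 98 tested secreted members with a promoter in the table (29.6%). It stood in 27 of 176 metabolic members (15.3%), in 6.13% of all tested genes with a promoter and in 8.24% of all 27025 promoters. Among the 29 secreted members were Serpina1a, Serpina1b, Serpina1c, Serpina1d and Serpina1e, near-identical copies that are not independent of each other. TATAAA was found in 21.4% of the secreted and 23.9% of the metabolic members, against 9.70% of tested genes and 15.7% of all promoters. TGTTTAC, a motif of the FOXA factors, was found in 9.18% and 3.98%, against 3.32% and 4.05%. CAAAGTC, a motif of HNF4, was found in 6.12% and 9.66%, against 4.98% and 5.00%. Genes called higher by at least 8 on the log2 scale, listed or not, held GTTAAT in 24.2%, TATAAA in 27.4%, TGTTTAC in 5.73% and CAAAGTC in 15.3%. These differences were not tested. No motif contains another, 15.4% of the genes have several windows, and a match describes letters, not binding.

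Against the mean of the other organs, 2981 of the 14864 genes were called higher in liver (20.1% of those tested) and 4042 lower (27.2%), at an adjusted p under 0.05. The higher genes reached much larger differences: 519 of them differed by at least 5 on the log2 scale and 201 by at least 8. Of the lower genes 113 differed by at least 5 and none by 8 (limma). The 2 directions are not measured alike, because a gene high in 1 other organ only is averaged over 3 organs. The 11 nephron markers had a median of −8.05 against kidney and −1.24 against the mean. A level at 0 counts was −4.33 in frozen and −3.66 in FFPE liver, and −4.54 or lower elsewhere. That limits how far below the other organs liver can lie. Of the higher genes 2263 lay above each other organ in both preservations, where 18.4% of all tested genes did so. Of the lower genes 2578 lay below each other organ in both, where 19.8% of all tested genes did so. Because each organ is 1 frozen and 1 FFPE library, p measures how alike the frozen and the FFPE difference were, not the spread between animals. The split depends on scaling: 1143 were higher and 8628 lower with total gene counts as library size, and 1630 and 8007 with counts outside the ribosomal genes. The median difference of all tested genes was −0.18, and −1.38 and −0.95 under these scalings.

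Kidney was most often the next organ. Of the 2981 higher genes, the highest other organ was kidney for 1750 in frozen and 1756 in FFPE tissue. It was heart for 738 and 801, and brain for 493 and 424. How often each organ was the highest other one among all tested genes was not counted. These numbers thus have no share to be set beside and cannot be read as particular to genes higher in liver. Against kidney alone 1711 genes were higher in liver (11.5%) and 2534 lower (17%). These counts rest on both kidney libraries, since 936 were called higher and 1100 lower without FFPE kidney, and 1013 and 1417 without frozen kidney. The comparison with kidney shares its liver and kidney libraries with the main one and is not independent of it.

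The lists here and below were chosen with earlier results of these data known, so their counts are not independent of the data. Each count of higher genes is to be set beside 20.1%, the share of all tested genes called higher. Of the 134 genes in the secreted protein lists 125 were tested, and 123 of them were called higher in liver. The other 2, A2m and Enho, were not called. The median difference was 8.85 against −0.18 over all tested genes, and 71 of the 125 entered through liver only. Of the 54 that would have entered without liver, 52 were higher with a median of 6.74, where 18.1% of all such genes were higher with a median of −0.23. When each library of another organ at or under 3 counts was set at the level of 3 counts, the median of the 125 was 7.55. Together the secreted lists took 16.25% of the nonribosomal counts in frozen and 13.17% in FFPE liver, and at most 0.4999% in any other library. Alb alone took 4.29% and 3.20%. These shares also follow transcript length.

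**Figure D2:**
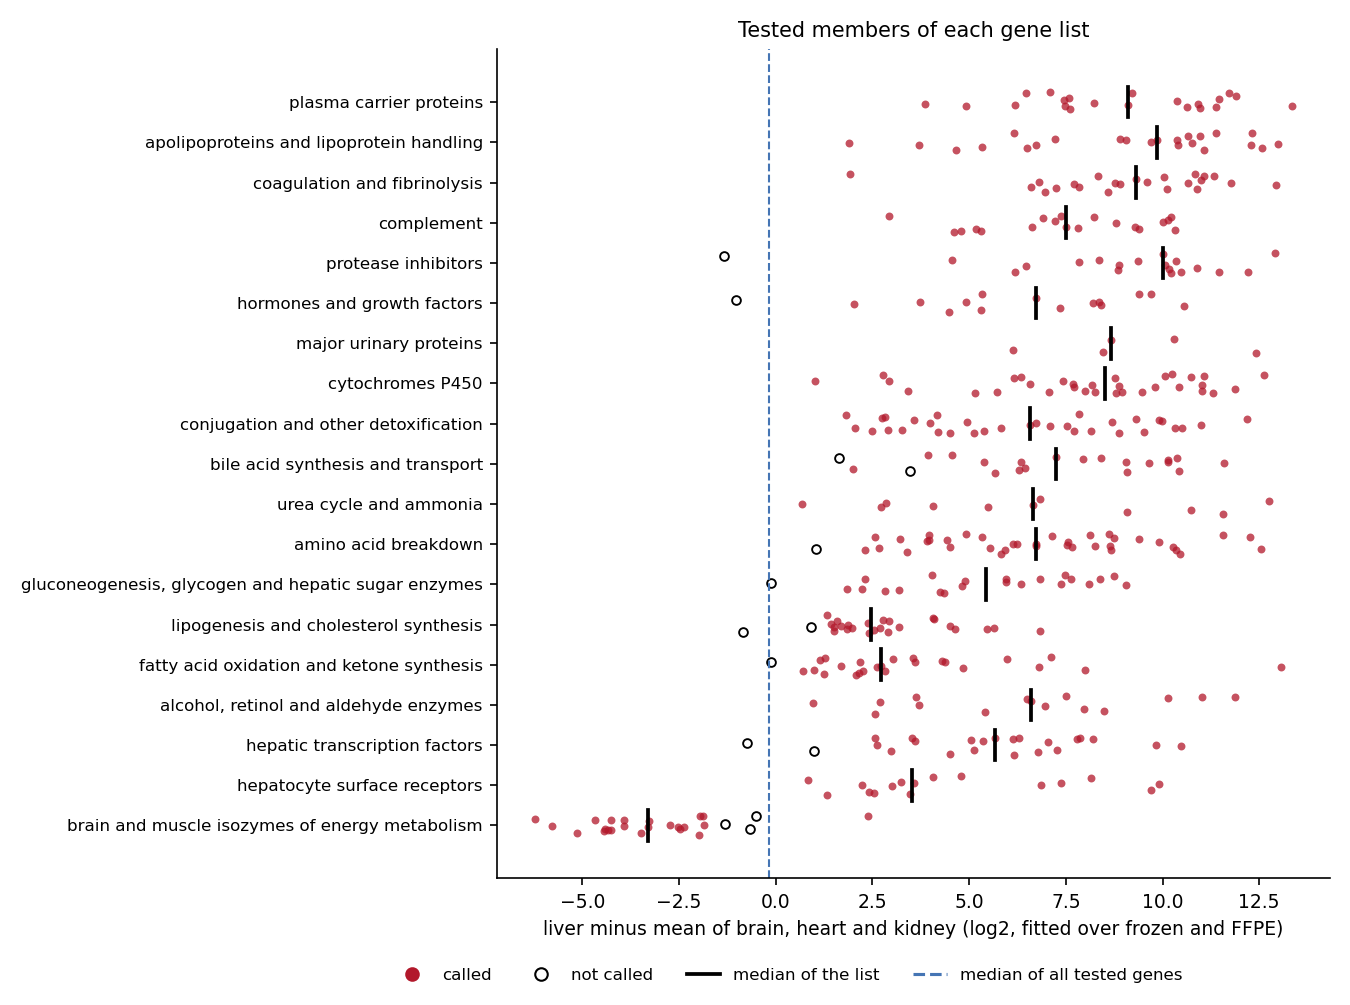
Fitted difference between liver and the mean of brain, heart and kidney (log2, x axis) for every tested member of 19 gene lists (rows); red points were called at an adjusted p under 0.05, open points were not, black bars are list medians and the dashed line is the median of all tested genes, −0.18. The 6 secreted lists other than the major urinary proteins have medians from 6.73 to 10.02, and the isozymes of brain and muscle one of −3.30.

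All 21 plasma carrier proteins were higher in liver, with a median of 9.10, and 20 of them also against kidney; 10 entered through liver only. Gc, the vitamin D binding protein, stood at 10.01 and 10.20 in liver and at or below 2.17 in every other library, a difference of 11.72 ± 0.36 (adjusted p = 3.72e-07). Hp, which binds free haemoglobin, differed by 11.45 ± 0.41, and Ambp, the precursor of bikunin and a lipocalin, by 11.89 ± 0.80. Several members differed less, among them Serpina7 by 6.46 and Cp by 4.92. Trf, the iron carrier transferrin, stood at 11.43 and 11.82 in liver and at 6.33 and 5.98 in brain, and differed by 7.62 ± 0.18 (adjusted p = 1.66e-07). Ttr, the thyroxine carrier transthyretin that the choroid plexus also makes, stood at 10.12 and 9.85 in liver, at 8.51 in frozen brain and at 4.31 in FFPE brain. The 2 brain libraries thus differed from each other more than the 2 liver libraries did. Ttr differed by 7.45 ± 0.65. Selenop, which carries selenium, had the smallest difference of the list, 3.87 ± 0.15, with kidney at 7.38 and 7.41. Afm, an albumin relative, was the 1 member not called against kidney (2.75 ± 1.13, adjusted p = 0.108).

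All 23 apolipoproteins and lipoprotein handling genes were higher, with a median of 9.86, and 15 entered through liver only. All 23 stood above each other organ in both preservations, as 18.4% of all tested genes did. Apoa5, which promotes triglyceride clearance, stood at 9.80 and 8.86 in liver and at 0.22 in frozen kidney, with the other 5 libraries at or below −2.96. It was among those that entered through liver only, and differed by 12.99 ± 0.71. Apoa1 and Apoa2, the main proteins of high density lipoprotein, differed by 12.58 ± 0.72 and 12.28 ± 0.32. Apoe, a ligand of lipoprotein receptors that astrocytes and macrophages also make, stood at 12.96 and 11.72 in liver and at 7.93 and 6.42 in brain, a difference of 6.17 ± 0.19. Apoa4 differed between the liver libraries themselves, at 9.92 in frozen and 4.72 in FFPE liver. Apom (1.45 ± 0.92) and Angptl4 (1.16 ± 0.77) were among the members not called against kidney.

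All 23 coagulation and fibrinolysis genes were higher (median 9.33, 16 through liver only), and so were all 19 complement genes (median 7.50, 8 through liver only). All 3 chains of fibrinogen were higher: Fga differed by 11.78 ± 0.53, Fgb by 12.94 ± 0.65, and Fgg stood at 9.33 and 9.65 in liver and at or below 1.58 elsewhere. Fgb stood at 9.71 and 9.68 in liver, and the highest other library was frozen kidney at −0.03. F2, the prothrombin gene, differed by 10.85 ± 0.46 and Plg, plasminogen, by 11.33 ± 0.76. Kng2, a kininogen, was an exception within the list, since kidney matched liver: 6.15 and 6.17 in liver, 6.25 and 5.97 in kidney. Its difference from kidney was 0.05 ± 0.90 (adjusted p = 0.978), while the other kininogen, Kng1, differed from kidney by 9.29 ± 0.65. Serpinf2, the plasmin inhibitor, and F13b, a subunit of factor XIII, were also not called against kidney. In the complement list C9 and Hc, parts of the membrane attack complex, differed by 10.32 ± 0.99 and 10.15 ± 1.01.

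Of 19 protease inhibitors 18 were higher (median 10.02, 11 through liver only). Serpina3k differed by 12.92 ± 1.05 and Serpina1b by 12.20 ± 0.87, but the Serpina1 and Serpina3 genes are near-identical copies whose reads may be shared, so the single values are uncertain. Pzp, the alpha-macroglobulin of mouse plasma, stood at 9.53 and 10.42 in liver and differed by 10.02 ± 0.34. Its relative A2m had 0.53 and −3.66 in liver and 2.37 and 2.43 in brain, and was not called (−1.34 ± 1.03, adjusted p = 0.315). Of 15 tested hormones and growth factors 14 were higher (median 6.73, 6 through liver only). Hamp, the iron hormone hepcidin, differed by 9.70 ± 1.01 and Hamp2 by 10.55 ± 0.87. Agt, angiotensinogen, stood at 8.22 and 7.64 in liver against 4.40 and 3.10 in brain and 4.57 and 3.17 in kidney, a difference of 5.32 ± 0.22. Igf1, the growth hormone effector, stood at 5.71 and 7.71 in liver and at or below 3.10 elsewhere. Enho was not called, with −2.74 in frozen and 1.62 in FFPE liver. Fgf21 did not pass the filter.

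The metabolic lists hold 225 genes, of which 223 were tested. Of the tested members 216 were higher in liver, where 20.1% of all tested genes were, and 7 were not called, with a median of 5.92. Of these 223, 53 entered through liver only. Without them 163 of 170 were higher with a median of 4.35, where 18.1% of all genes entering without liver were higher. With the other organs at or above the level of 3 counts, the median of the 223 was 5.58. The lists took 11.23% of the nonribosomal counts in frozen and 7.63% in FFPE liver, against 4.19% and 2.59% in kidney, 0.966% and 0.772% in heart, and 0.486% and 0.412% in brain. Kidney thus came far closer to liver here than for the secreted proteins. Against kidney 161 members were higher, 1 was lower and 61 were not called, while 113 of the 125 secreted members were higher and 12 were not called. Of all tested genes 11.5% were called higher than in kidney.

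**Figure D3:**
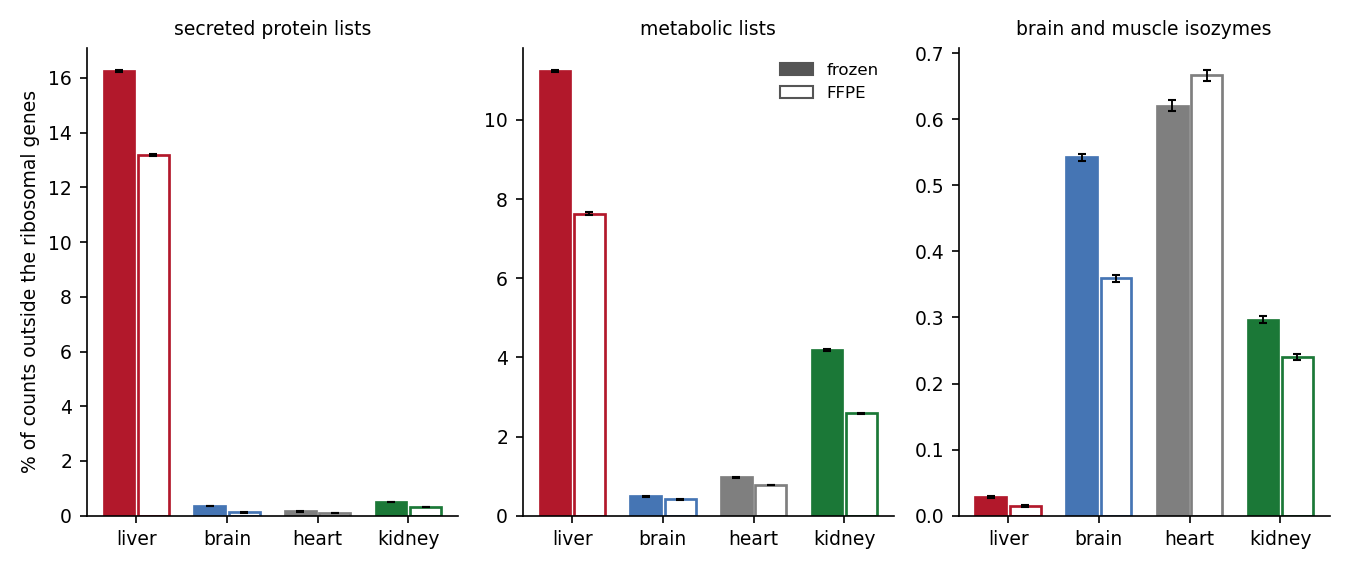
Share of the counts outside the 4 ribosomal genes (percent, y axis, a separate scale in each panel) that fell on the secreted protein lists, the metabolic lists and the list of brain and muscle isozymes, in frozen (filled bars) and FFPE (open bars) libraries of each organ. Whiskers are 95% Wilson intervals and cover counting error only; liver leads both left panels and has the smallest bars of the right one.

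All 32 genes of the cytochrome P450 list were higher in liver (median 8.52, 17 through liver only), and so were the 33 tested conjugation and detoxification genes (median 6.57, 11 through liver only). Cyp3a11, the main mouse counterpart of the drug-oxidising CYP3A enzymes, stood at 10.07 and 10.21 in liver and at or below −0.17 in every other library. It differed by 12.62 ± 0.56 and was among those that entered through liver only. Cyp1a2, which oxidises caffeine, also entered through liver only and differed by 11.32. Several P450 genes are near-identical copies, among them the Cyp2c group, and their single values are uncertain. Cyp2j5 was level with kidney (7.06 and 7.46 in liver, 7.69 and 7.60 in kidney), and its difference from kidney was −0.38 ± 0.50 (adjusted p = 0.624). Cyp4b1 was the 1 metabolic member lower than in kidney, by −5.16 ± 0.40. Against the mean of the 3 organs it was called higher by 1.02 ± 0.33, with brain at −6.10 and −5.43, and that difference turned to −0.18 under total count scaling. Among the conjugating enzymes, Ugt1a1, which glucuronidates bilirubin, differed by 9.51 ± 0.69 from the other organs and by 6.67 ± 0.84 from kidney. Ugt3a2 differed from kidney by −0.41 ± 0.50 and Glyat, which conjugates acyl groups to glycine, by −0.03 ± 0.67, neither called.

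Of 21 genes of bile acid synthesis and transport 19 were higher (median 7.26, 9 through liver only). Cyp7a1, the rate-limiting enzyme of bile acid synthesis, stood at 5.07 and 6.81 in liver and at or below −0.17 elsewhere, a difference of 9.64 ± 1.12. Cyp8b1, which sets the cholic acid share, differed by 11.59 ± 0.92. Abcb11, the bile salt export pump, differed by 10.37 ± 0.88 and Slc10a1, the bile acid uptake carrier, by 10.14 ± 0.76. The 2 members not called were Slco1a1 (3.48 ± 1.48) and Cyp7b1 (1.63 ± 1.10), and both differed widely between frozen and FFPE liver.

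All 11 urea cycle and ammonia genes were higher in liver (median 6.66, 4 through liver only), and 37 of 38 genes of amino acid breakdown were (median 6.73, 7 through liver only). Cps1, which makes the first intermediate of the urea cycle, stood at 9.60 and 10.74 in liver and at or below 0.16 elsewhere. Its difference was 11.56 ± 0.55, and it entered through liver only. Arg1, which releases urea, stood at 8.42 and 8.41 and differed by 12.75 ± 1.06. Ass1 and Asl act between them and also make arginine in kidney. Ass1 stood at 7.90 and 8.92 in liver and at 6.71 and 7.31 in kidney, and was not called against kidney (1.40 ± 0.50, adjusted p = 0.0686). Asl was, by 2.69 ± 0.31. Glul, glutamine synthetase, had nearly the same level in brain (8.01 and 7.30) as in liver (7.74 and 7.28). Its difference of 0.69 ± 0.22 from the 3 organs turned to −0.51 under total count scaling and to −0.18 under quantile normalization.

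Among the enzymes of amino acid breakdown, Mat1a, which makes S-adenosylmethionine, differed by 12.54 ± 0.55 and Bhmt, which remethylates homocysteine, by 11.57 ± 0.42. S-adenosylmethionine is the methyl donor for m6A and for most other methylations. Tat, tyrosine aminotransferase, stood at 7.84 in frozen and 9.76 in FFPE liver and differed by 12.26 ± 0.88. Against kidney 12 members of the list were not called. Sdsl was not called against the 3 organs (1.05 ± 0.66).

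Of 22 genes of glucose synthesis, glycogen and hepatic sugar use 21 were higher (median 5.43, 1 through liver only), but only 12 of the 22 also against kidney. Pck1, the first committed enzyme of glucose synthesis, stood at 10.24 and 10.01 in liver and at 9.72 and 8.30 in kidney. Its difference from kidney was 1.11 ± 0.80 (adjusted p = 0.354). G6pc, which releases free glucose, stood at 7.76 and 8.07 in liver and at 7.02 and 7.08 in kidney (0.86 ± 0.51, adjusted p = 0.261). Fbp1, which acts between them, differed from kidney by 1.01 ± 0.64 and was not called. Against brain and heart these 3 genes were far apart, and their differences from the 3 organs ran from 7.64 to 9.04. Other members stood apart from kidney too. Gckr, a regulator of hepatic sugar use, differed from kidney by 8.51 ± 0.90 and the glycogen phosphorylase Pygl by 4.55 ± 0.27.

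**Figure D4:**
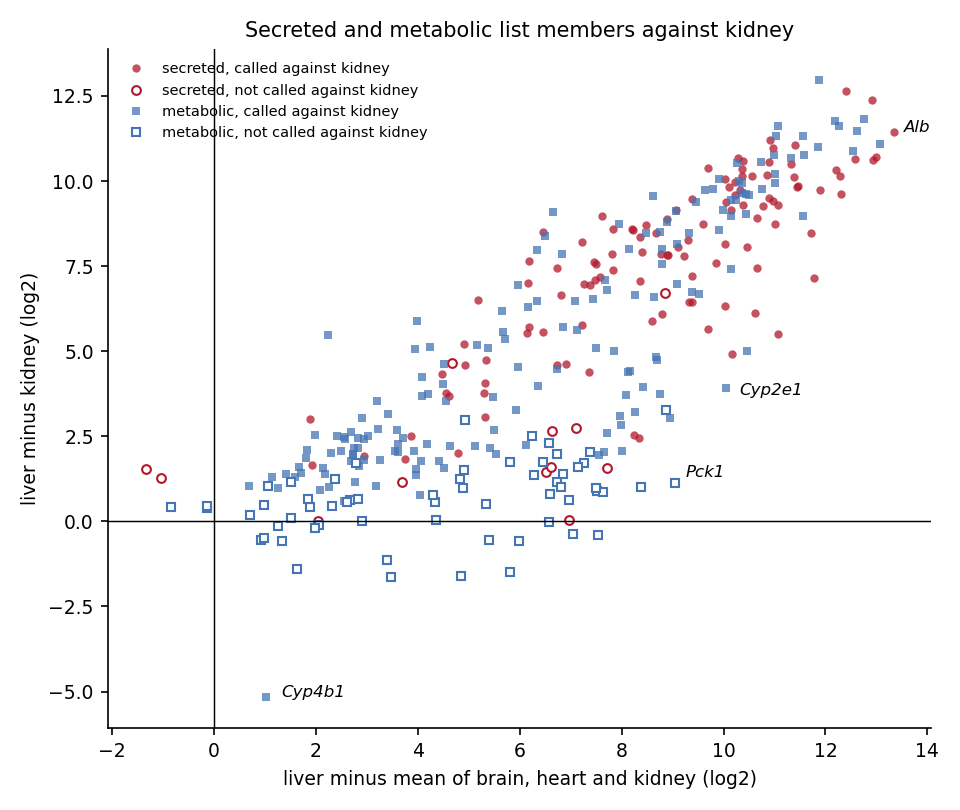
Difference between liver and the mean of the 3 other organs (log2, x axis) against the difference between liver and kidney alone (log2, y axis) for the tested members of the secreted (red circles) and metabolic (blue squares) lists; open symbols were not called against kidney. Both axes use the same liver and kidney libraries; metabolic members make up most of the symbols near 0 on the y axis, and Cyp4b1 is the 1 filled symbol below it.

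Of 26 genes of lipogenesis and cholesterol synthesis 24 were higher (median 2.47, none through liver only). Of 25 genes of fatty acid oxidation and ketone synthesis 24 were higher (median 2.73, 1 through liver only). These differences were smaller than for the lists above, and 14 lipogenesis genes were called higher under total count scaling. Against kidney 17 of the 26 and 15 of the 25 were called higher, where 11.5% of all tested genes were. Liver stood above each other organ in both preservations for 17 and 15, where 18.4% of all tested genes did so. Kidney was the highest other organ for 14 of the 25 oxidation genes in frozen and 14 in FFPE tissue. This was not counted for all tested genes. Scd1, which desaturates stearate, stood at 11.92 and 10.82 in liver and between 2.22 and 6.06 in the other libraries, a difference of 6.84 ± 0.31 (adjusted p = 1.68e-06). Fasn, fatty acid synthase, differed by 2.90 ± 0.17 and Acaca, which makes malonyl-CoA, by 1.98 ± 0.17, though Acaca was not called under total count scaling. Pnpla3 (−0.84 ± 0.44) and Mvd (0.91 ± 0.62) were not called. Fabp1, the fatty acid binding protein of liver and gut, stood at 9.39 and 9.12 in liver and at or below −1.21 elsewhere, a difference of 13.06 ± 0.70. Heart, a main user of fat, stood above liver for Acadvl and Hadhb, 2 genes of the oxidation spiral. Acadvl stood at 6.92 and 6.03 in liver against 7.36 and 7.20 in heart. Hadhb was further below, at 4.49 and 3.72 in liver against 6.53 and 6.71 in heart, and was not called against the 3 organs (−0.13 ± 0.20). All 15 tested genes of alcohol, retinol and aldehyde metabolism were higher (median 6.60, 3 through liver only), among them Adh1, alcohol dehydrogenase, by 7.97 ± 0.41 and Aldh1a1 by 6.49 ± 0.25. Uox, the urate oxidase that mice keep, differed by 11.02 ± 0.77.

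The isozymes that brain, heart and skeletal muscle use went the other way. Of 26 such genes of energy metabolism 22 were called lower in liver, where 27.2% of all genes were, 1 was higher and 3 were not called, with a median of −3.30. They took 0.0280% of the nonribosomal counts in frozen and 0.0150% in FFPE liver, against at least 0.240% in every other library. Hk1, the hexokinase of brain and many other tissues, was lower by −4.67 ± 0.51. It stood at 2.18 and −0.49 in liver and between 4.91 and 6.03 elsewhere. Pklr, the pyruvate kinase of liver and red cells, was higher by 8.09 ± 0.78, and Pkm, that of muscle and brain, lower by −4.25 ± 0.20. Aldoa, the aldolase of muscle, was lower by −2.73 ± 0.24. For glycogen phosphorylase, Pygl was higher by 5.96 ± 0.22, and Pygm and Pygb lower by −3.91 ± 0.32 and −4.27 ± 0.16. For glycogen synthase, Gys2 was higher by 6.35 ± 0.76 and Gys1 lower by −2.48 ± 0.30. Among glucose transporters, Slc2a2 was higher by 7.37 ± 0.65 and Slc2a4, the insulin-responsive form of muscle and fat, lower by −3.29 ± 0.50, a call that was lost without both heart libraries.

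The gene of ketone use was lower as well. Oxct1, which lets tissues use ketone bodies, stood at 1.90 and 1.83 in liver and between 5.64 and 7.66 in all 6 other libraries. It was lower by −5.13 ± 0.13 (adjusted p = 1.66e-07). Ldhb, the lactate dehydrogenase chain of heart, stood at 0.32 and 1.69 in liver and between 5.45 and 7.48 elsewhere, a difference of −5.79 ± 0.35. Ckb, the creatine kinase of brain, was lower by −4.40 ± 0.18, and the mitochondrial creatine kinase Ckmt1 had 0 counts in both liver libraries. Slc25a4, the muscle and brain carrier of ATP across the inner mitochondrial membrane, was lower by −5.23 ± 0.18. The exception was Slc16a7, a monocarboxylate transporter, which was higher by 2.39 ± 0.29. Hk2 (−0.66 ± 0.51), Cpt1b (−1.31 ± 1.13) and Bcat2 (−0.52 ± 0.35) were not called. Outside the lists, the genes furthest below each other organ included Enah, which binds actin filament ends (−6.41 ± 0.25), Cpe, which processes peptide hormones (−5.85 ± 0.18), Cyfip2, a part of the WAVE complex (−5.82 ± 0.15), and Cryab, a small heat shock protein (−5.62 ± 0.29). Enah had 3 counts in frozen and 1 in FFPE liver.

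**Figure D5:**
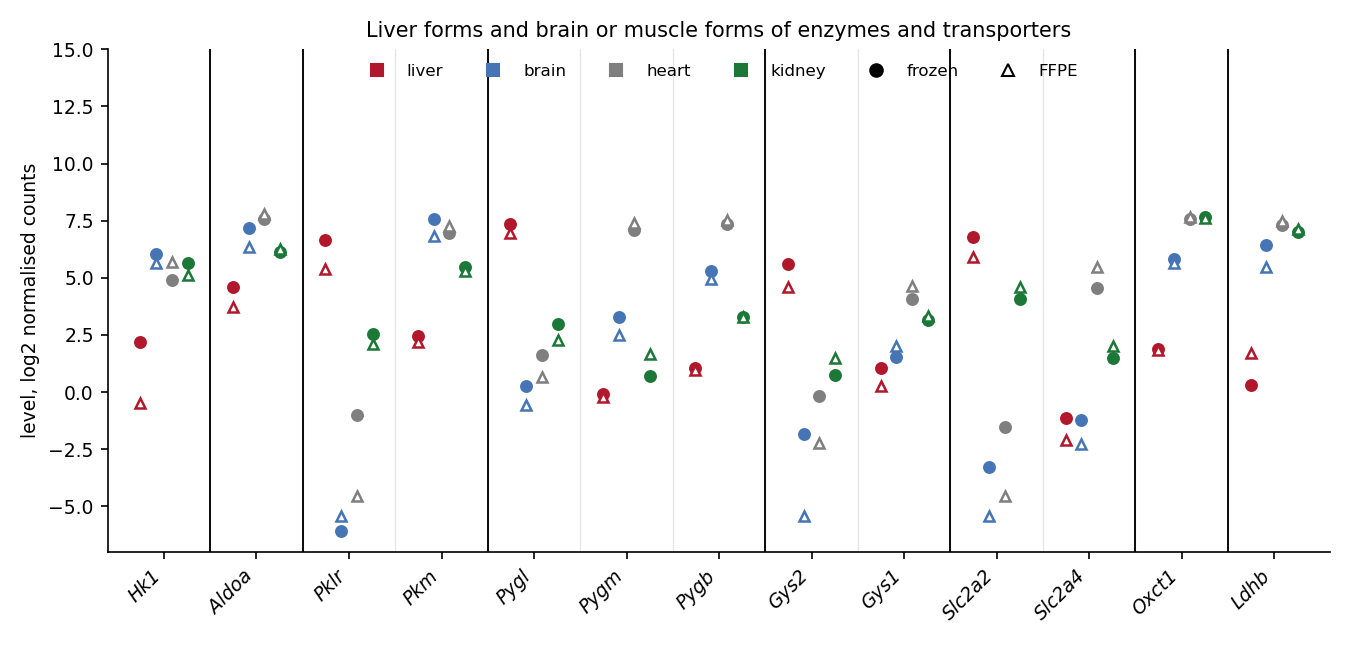
Levels (log2 normalised counts, y axis) of 13 genes in the 8 m6A libraries, with black lines between groups of enzymes or transporters of related function, with colour for the organ, filled circles for frozen and open triangles for FFPE tissue; each point is 1 library. In both liver libraries liver is highest for Pklr, Pygl, Gys2 and Slc2a2, and lowest for Hk1, Aldoa, Pkm, Pygm, Pygb, Gys1, Oxct1 and Ldhb; for Slc2a4 liver and brain are alike.

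Of 23 transcription factors of hepatocytes 21 were higher in liver (median 5.67, 8 through liver only), and all 16 surface receptors were (median 3.52, 4 through liver only). Of all tested genes 20.1% were. Hnf4a, a factor shared with kidney tubules, was level with kidney. It stood at 7.89 and 7.95 in liver and at 7.22 and 7.68 in kidney (0.47 ± 0.97, adjusted p = 0.771). Others had no such partner: Nr1i3, the xenobiotic receptor CAR, differed from kidney by 10.33 ± 0.89 and Creb3l3, a membrane-bound factor of lipid metabolism, by 9.27 ± 1.06. Hnf4g (0.98 ± 0.92) was not called against the 3 organs. Of the receptors, Asgr1 and Asgr2, the chains of the asialoglycoprotein receptor, differed from the 3 organs by 9.92 ± 0.80 and 9.71 ± 0.84. Gcgr, the glucagon receptor, differed by 6.86 ± 0.51, whereas Met, the receptor of hepatocyte growth factor, did not pass the test against kidney (−0.46 ± 0.40).

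Among the higher genes, 254 stood in kidney at least 3 above both brain and heart in both preservations. How many of all tested genes do so was not counted, so 254 has no share to be set beside. Against kidney 60 of the 254 were higher in liver, 16 lower and 178 not called. Of all tested genes 11.5% were higher than in kidney and 17% lower. Among the 254, those with the highest mean level included Aldh1l1, Sephs2, Col18a1, Sord and Gpx1. Aldh1l1, a folate enzyme, was higher than in kidney by 2.14 ± 0.19 and Sephs2, which makes the selenium donor for selenoproteins, by 2.06 ± 0.20. Gpx1, a selenoprotein that removes peroxide, stood at 7.93 and 8.12 in liver and at 7.22 and 6.96 in kidney, and was not called (0.94, adjusted p = 0.0641).

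Cells of the liver other than hepatocytes were seen as well. All 9 markers of sinusoidal endothelium were higher in liver (3 entered through liver only), where 20.1% of all tested genes were. Clec4g was higher by 8.13 ± 0.98 and Stab2 by 6.48 ± 1.13. Of 9 tested Kupffer cell markers 5 were higher, but 4 of these entered through liver only, and of the other 5 markers 1 was higher, where 18.1% of all genes entering without liver were. The defining lectin Clec4f, one of those 4, had 196 and 200 counts in liver. Csf1r, which macrophages of all organs carry, stood at 3.54 and 3.91 in liver and between 3.31 and 3.72 elsewhere. Of 10 stellate cell markers 8 were higher (2 through liver only), where 20.1% of all tested genes were. Lrat, which stores vitamin A, was higher by 5.27 ± 0.68. Des, a muscle intermediate filament with 8.47 and 8.11 in heart, was lower (−2.33 ± 0.29), and its difference was 0.22 without both heart libraries. Of 9 cholangiocyte markers 7 were tested and none was called (median 0.04). The 9 together had 157 counts in frozen and 119 in FFPE liver. Among them Krt19 and Krt7 had at most 13 counts in either liver library. Of 10 exocrine pancreas markers 1 passed the filter, and none had more than 9 counts in liver.

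Genes tied to liver zones were present on both sides. Of 14 genes of hepatocytes around the central vein 11 were higher (median 5.92, 4 through liver only), and of 14 around the portal vein 12 (median 8.05, 6 through liver only). Without those that entered through liver only, 7 of 10 (median 2.90) and 6 of 8 (median 6.07) were higher, where 18.1% of all such genes were. Cyp1a2 (6.41 and 8.08), Cyp2e1 and Gulo (5.92 and 6.37) stand for the first, and Cps1, Cyp2f2 (7.80 and 8.37) and Hal (6.94 and 7.09) for the second. The zone lists share members with the lists above.

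Wide gaps between frozen and FFPE liver stood in several genes that are known to depend on sex in mouse liver. Serpina1e stood at 0.43 in frozen and 9.84 in FFPE liver, from 13 and 5818 counts, and was not called without FFPE liver. Major urinary proteins, pheromone carriers that males make in excess, took 0.0213% of the nonribosomal counts in frozen and 0.370% in FFPE liver. Mup3 stood at 6.04 and 10.10, Mup20 at 3.41 and 7.20, and Mup7 at 0.80 and 7.47. In all 3 the FFPE library was the higher one, and Mup7 was not called without it. Of 13 listed Mup genes 5 were tested, all through liver only, and all 5 were higher in liver (median 8.67). Without FFPE liver 3 were called. The Mup genes are near-identical copies and single values are uncertain. The list of 12 male-biased genes shares members with the lists above, Mup20 among them, and is not independent of the Mup genes. Its genes took 0.0467% of the nonribosomal counts in frozen and 0.363% in FFPE liver. Hsd3b5 had 0 and 122 counts, Selenbp2 0 and 461, Slco1a1 10 and 626, and Elovl3 107 and 860.

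The 16 female-biased genes took 0.0833% and 0.0834%, nearly the same share in both. Cyp2b9 stood at 7.65 in frozen and 7.08 in FFPE liver and Cyp2b13 at 5.55 and 5.45, while Cyp2c69 stood at 1.23 and 5.94. Xist, transcribed from the inactive X chromosome, had 5 counts in frozen and 4477 in FFPE liver. The other organs showed the same split, with 5 in frozen brain, 12 in frozen heart and 26 in frozen kidney against 4050, 2693 and 6685 in FFPE tissue. The frozen and the FFPE library of an organ thus differ in Xist as well as in preservation, and the 2 cannot be told apart. The Y-linked Ddx3y had 298 and 43, Uty 77 and 31, and Kdm5d 73 and 38, so Y-linked transcripts were present in both liver libraries. The part of donor sex in the liver against organ differences was not tested. The 4 hepatocyte markers, Ldhb and Oxct1 were on the same side of every other organ in both liver libraries. Of all tested genes 18.4% lay above and 19.8% below each other organ in both preservations.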

How the data were processed

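The deposited table holds log2 values that the authors computed as log2 CPM with 0.5 added to each count and a scaled library size. This follows from the values themselves: whole counts came back for 100.0% of them, within 0.001 relative to 10000 counts. HISAT2, featureCounts, limma and the build mm10 are named in the submitters' processing notes, with no versions used here. That the columns are m6A comes from the table's name, since column names give only organ and preservation. Another 8 columns of per-sample values, from the m5C table, were not used. RefSeq's gene table (GRCm38.p6) matched 25275 gene IDs, and 1275 genes kept no symbol.

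From these values limma 3.58.1 (R 4.3.3) fitted organ and preservation for each gene with log2 above 0 in at least 2 libraries, with 3 residual degrees of freedom and a variance trend. Liver was contrasted with the mean of the 3 other organs and with kidney, with two-sided tests and Benjamini-Hochberg adjustment over all 14864 genes. Nothing says whether a column holds 1 sequenced sample or both of its group, and p measures only the spread between these libraries. Shares have 95% Wilson intervals, which cover counting error only, since reads carry no molecular identifiers. The fit was run on simulated data drawn from its own additive model with independent normal noise. That run checks the fitting code and cannot show whether the model suits these libraries. Other scalings, added counts, filters, weights and left-out libraries were tried.

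Members and lists were chosen with earlier results of these data known. Named were the 4 markers, the 12 higher and 12 lower genes with the greatest differences on a consistent side of each other organ (mean log2 at least 3), the 6 most abundant genes shared with kidney, up to 4 leading members of each list, members not called or called the other way, and the 6 members with the widest gap between frozen and FFPE tissue. From these sets the text takes a selection, and further members were named after their values were seen. Some members are counted in their lists but not reported here by name. Tables and figures used Python 3.11.15, numpy 2.4.6, pandas 2.3.3, scipy 1.17.1 and matplotlib 3.10.9.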

Additional observations from a re-analysis of the deposited data

Results flagged for a closer look

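For 2 list members the liver difference had opposite signs in frozen and FFPE tissue, by at least 1 on the log2 scale each way and with more than 3 counts in both liver libraries. Cyp7b1, an oxysterol hydroxylase of bile acid synthesis, lay below the mean of the other organs in frozen tissue (−1.44) and above it in FFPE tissue (4.70), from 18 and 251 liver counts. Cux2, a transcription factor that is higher in female mouse liver, lay below in frozen (−1.80) and above in FFPE tissue (1.01), from 13 and 93 counts. With 1 library of each kind, neither difference was tested.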

How the results depend on the processing

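Of the 4 gene counts, those under quantile normalization (3230 higher and 3754 lower than the other organs), median centring (3567 and 3448), 2 added counts, the stricter filter, both kinds of weights, no variance trend and without both heart libraries stayed within 1.5 times. Total count scaling gave 1143 higher and 8628 lower than the other organs, and 638 and 6893 against kidney. Scaling by counts outside the ribosomal genes gave 1630 and 8007, and 898 and 7217. Without a filter 5624 of 27179 genes were higher than the other organs, a share of 20.7% against 20.1% with the filter, and 4085 were higher than kidney. With 1 library left out at a time, the counts against kidney ran from 936 (without FFPE kidney) to 1774 higher and from 1100 to 2589 lower. The causes of these moves were not tested beyond the scaling shifts given with the counts. List counts stayed within 1.5 times, except 14 lipogenesis genes under total count scaling and 3 Mup genes under the stricter filter and without FFPE liver.

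Of the named genes, called differences changed sign for Cyp4b1 (−0.18, total counts), Glul (−0.18 quantile, −0.51 total, −0.086 nonribosomal) and Des (0.22 without both hearts). Calls were lost for Cyp2c69, Mup7 and Serpina1e without FFPE liver, for Acaca and Acadvl under total counts, for Slc2a4 without both hearts, and for Cyp4b1 and Glul under several settings. Uncalled differences changed sign for Mvd (−0.29), Hnf4g (−0.22) and Sdsl (−0.15) under total counts and, with median centring, Hadhb (0.038). Without both hearts Hadhb gave 1.06 and Hk2 1.31. With 1 library left out the uncalled A2m ran from −2.75 to 0.067, Bcat2 from −1.29 to 0.26, Cpt1b from −3.14 to 0.53, Cux2 from −1.80 to 1.01, Cyp7b1 from −1.44 to 4.70, Enho from −3.73 to 1.65, Hadhb from −0.44 to 0.18, Hk2 from −1.80 to 0.48, Hnf4g from −0.0034 to 1.97, Mvd from −0.55 to 2.38 and Slco1a1 from −0.59 to 7.54, the ends being the fits without frozen or FFPE liver. No paired analysis was possible because the columns carry no run number. Organs were already compared within preservation, which is a term in every fit. FFPE liver, with the fewest counts outside the ribosomal genes, sets how low a liver level can be seen.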

Other observations

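Of the 201 genes called higher in liver by at least 8 on the log2 scale, 156 belong to a list described above and 45 to none. Among genes outside the secreted and metabolic lists, named after their values were seen, several that other organs also express stood high in liver. Fn1, the matrix and plasma protein fibronectin, had 9.02 in frozen and 9.34 in FFPE liver and differed from the other organs by 5.14 ± 0.13. Slc7a2, a carrier of basic amino acids, differed by 5.55 ± 0.27, Dpyd, which degrades uracil and thymine, by 5.38 ± 0.18, and Hsd11b1, which regenerates active glucocorticoid, by 4.81 ± 0.29. Chdh, which oxidises choline towards betaine, was level with kidney, at 6.63 and 6.71 in liver and 7.06 and 6.84 in kidney. Plin2, a coat protein of lipid droplets, stood at 7.86 in frozen and 6.10 in FFPE liver and differed by 4.61 ± 0.30.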
